A study of Bos grunniens with 6 samples.

Results

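The miRNAs described here are those with cattle names numbered from miR-2286 to miR-2487. They were picked by name alone: an entry belongs when its name is a cattle miRNA with a whole number in this range, ends included, whatever letter, copy number or arm follows. This gave 137 of the 2853 listed entries, with 114 distinct numbers, and none was dropped for a low level. They were measured by small RNA sequencing in cultured, wild-type cells from the skin of yak (Bos grunniens), and the sequences carry the names of cattle entries. One group was dermal papilla cells, which are mesenchymal and lie in the follicle bulb (3 libraries), and the other was hair matrix cells, the dividing epithelial cells around the papilla that give rise to the hair shaft (3 libraries). Both were isolated and grown in the same medium with serum, IGF1 and EGF, and no other treatment or allele is named. The labels list both under a cell line tag and speak of biological replicates but name no animals or cultures, so a p-value here speaks only of the spread among these libraries, which may be technical.

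A miRNA is cut from a hairpin precursor, and either arm of the hairpin, named 5p or 3p, can be the one that is kept. The mature RNA guides Argonaute to mRNAs, mostly by pairing through its seed, bases 2 to 8 from the 5′ end. miRNA numbers are given in the order in which sequences are registered, so a block of neighbouring numbers reflects a period of discovery and not a family. The block here comes from early surveys of cattle small RNA by deep sequencing, and for most of its entries no function in the hair follicle is known.

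The called members and the 5 most abundant members carry the results, so their sequences are shown first, as deposited and written in DNA letters, with the seed in capitals. The first 5 lines are the most abundant members in order of mean level, the next 4 were higher in dermal papilla cells, and the last 7 were higher in hair matrix cells.
miR-2387: tGGAAGGCctggctttgcagcg
miR-2419-5p: aTCGCATCaacactcgtctgtt
miR-2443: tGAGGGCAggaccgtatgaggtgt
miR-2318: gTGTATGAtgaattatctgacc
miR-2336: cTAACCGTaactttgaagtgct
miR-2299-3p: tCCGGGGAatggatccagcgt
miR-2483-5p: cGTCAACCatccagctgtttga
miR-2483-3p: aAACATCTggttggttgagaga
miR-2366: tGGGTCACagaagagggtctgg
miR-2314: tGCCCATGatgactgctgacc
miR-2448-3p: gTGGTTGAttggatccgtgggt
miR-2397-3p: cAGAGCAGtggcaagaacgcat
miR-2459: gCCAGATGatgggagctgatt
miR-2307: aGTGATGAtgaaccctctgagc
miR-2419-3p: cAGGCGGGtgctaatacgatca
miR-2460: tGGAGCTCttgaggcctggcat

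No seed was shared between members: the 137 sequences had 137 distinct seeds. Of the 5 most abundant members, none shared its seed with any other listed entry. In all, 36 members shared a seed with an entry outside the number range, and in 10 of these the other entry had a cattle name. The members were 20 to 25 bases long, and their GC content ran from 27.3% to 81.8%.

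Most members were close to the limit of detection. Levels are given as RPM, reads of an entry scaled to its library's total, which was 23904796 to 24693655 reads. A floor of 3 reads lay at 0.121 to 0.125 RPM per library and covers counting error only. The mean level over the 6 libraries was at least 10 RPM for 8 members, 1 to 10 RPM for 33 and under 1 RPM for 96. Of the 137 members 65 had a read in every library, and 16 had 1 read in all 6 libraries together. The members numbered at 1 RPM or more were 32 to 35 per dermal papilla library and 33 to 38 per hair matrix library.

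Known markers moved with cell type as labelled. The summed level of 10 epithelial miRNAs was 397 to 472 RPM in dermal papilla libraries and 84491 to 87204 RPM in hair matrix libraries. The summed level of 6 mesenchymal miRNAs was 88413 to 91201 RPM in dermal papilla libraries and 1204 to 1421 RPM in hair matrix libraries. Markers of blood (20.3 to 23.0 against 9.11 to 12.5 RPM), endothelium (3.68 to 4.70 against 2.57 to 4.01 RPM), muscle (58.4 to 72.9 against 40.9 to 42.6 RPM), neural cells (37.8 to 42.7 against 31.9 to 35.03 RPM) and melanocytes (73.9 to 99.4 against 2.41 to 2.83 RPM) are given as summed levels, dermal papilla first. Of the 3 neural names 2 matched no listed entry, so the neural level is that of miR-9 alone. The part of such cells in the results was not tested.

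As a whole the members made up a very small part of the miRNA pool. Their summed level was 275, 293 and 309.5 RPM in the dermal papilla libraries and 353, 343 and 369 RPM in the hair matrix libraries. The hair matrix libraries were all higher, with means of 293 ± 17.1 (SD, n = 3) and 355 ± 13.2 RPM, a ratio of 1.21. This sum was 0.0378% to 0.0432% of listed reads in the dermal papilla libraries and 0.0474% to 0.0513% of them in the hair matrix libraries. The 5 highest members of each library held 58.6% to 63.7% of it. In such bulk samples, fewer cells that make a miRNA and less of it per cell cannot be told apart. Without miR-2387, the most abundant member and the one with the highest dermal papilla level, the ratio was 1.57.

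An entry was tested when it reached 1 RPM in at least 3 of the 6 libraries, which 503 entries of the whole table and 43 of the 137 members did. limma was fitted to log2(RPM + 1) of all 503, and calls needed an adjusted p below 0.05 together with a change of 2-fold or more on that scale, where the pseudocount makes changes of low miRNAs look smaller than they are. A positive log2 change means a higher level in dermal papilla cells. Of the 43 tested members 5 were called higher in dermal papilla cells, where 25.2% of all tested entries were called, and 10 were called higher in hair matrix cells, where 19.9% were. In either direction 15 members were called, against 45.1% of all tested entries. The median log2 change of the tested members was -0.21, against -0.01 over all tested entries, and 18 changes were positive and 25 negative. Their median absolute log2 change was 0.67, against 0.89 over all tested entries. The tested members were also lower, at a median of 1.97 RPM against 6.85 RPM over all tested entries, and the pseudocount weighs more at low levels. Dermal papilla and hair matrix libraries were apart in 36 of the 43 tested members, against 84.1% of all tested entries, a share near that of the table as a whole.

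The filter shaped these counts. The 3 libraries of 1 cell type all reached 1 RPM while none of the other cell type did in 6 tested members high in dermal papilla cells and in 7 high in hair matrix cells. Such members passed through the cell type in which they were high, so a difference in them follows from the filter. Of the 15 called members 6 were of this kind. The split between directions also moved with the scaling. Centring each library on the median of the tested entries shifted the median log2 change of all 503 from -0.01 to -0.29. The calls of members were then 3 for dermal papilla and 13 for hair matrix cells in place of 5 and 10. Over all 503 entries the calls were 109 and 137 in place of 127 and 100, so the table as a whole moved the same way.

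**Figure D1:**
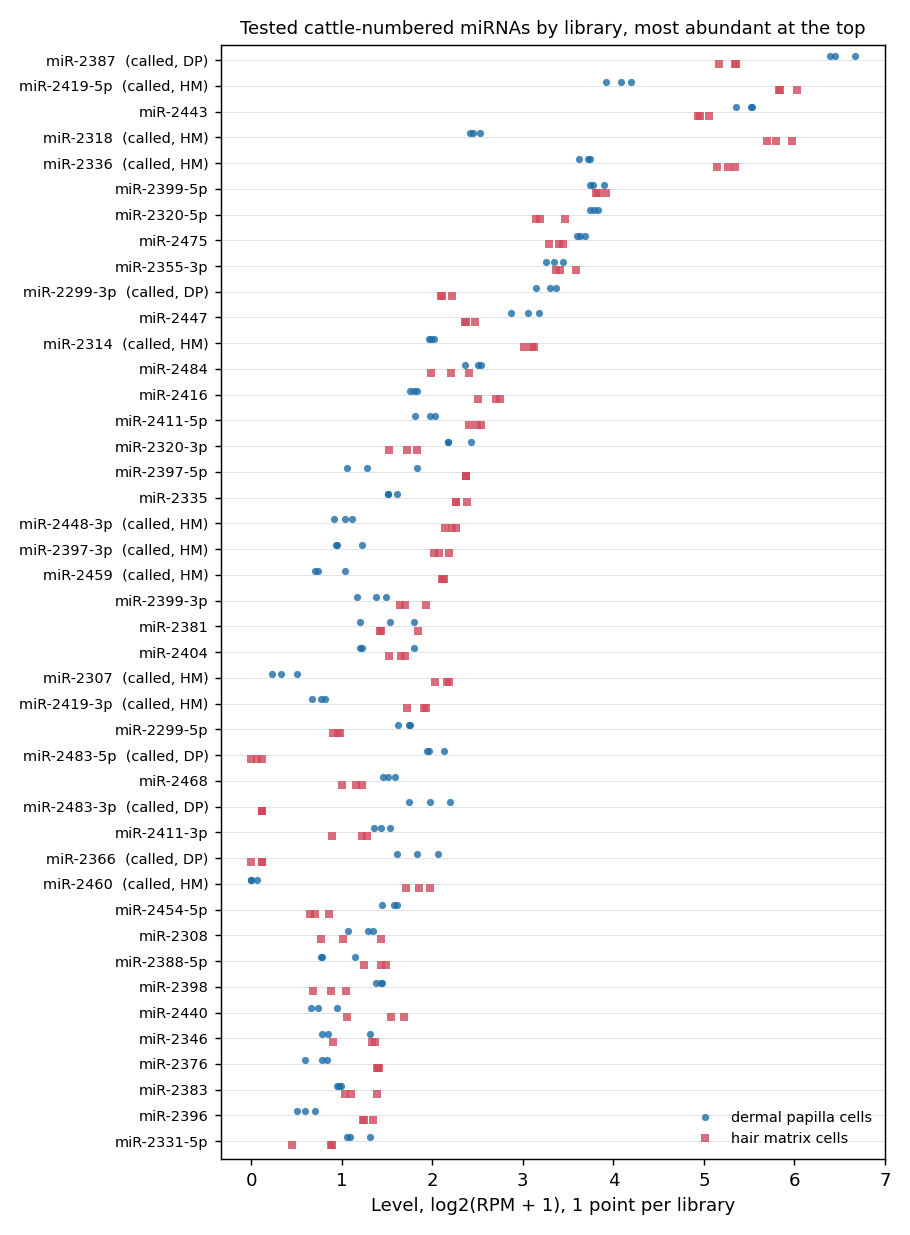
Levels of the 43 tested members as log2(RPM + 1) on the horizontal axis, with 1 point per library, circles for dermal papilla and squares for hair matrix cells, ordered by mean level. The points of the 2 cell types lie apart in 36 members, and on this scale miR-2318 shows the widest gap, between 4.74 RPM in its highest dermal papilla library and 51.1 RPM in its lowest hair matrix library.

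miR-2387 was the most abundant member and was higher in dermal papilla cells. Its level was 83.3, 86.6 and 100.9 RPM in the dermal papilla libraries and 39.5, 34.9 and 39.9 RPM in the hair matrix libraries. Every dermal papilla library exceeded every hair matrix library, and the means were 90.3 ± 9.38 (SD, n = 3) and 38.1 ± 2.79 RPM. The log2 change was 1.22 ± 0.094 (SE; limma adjusted p = 1.16e-05), and after median centring it was 0.95 and no longer called.

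miR-2443, the third most abundant member, moved the same way but by less. Its level was 39.9, 44.9 and 45.2 RPM in the dermal papilla libraries and 32.2, 30.2 and 29.6 RPM in the hair matrix libraries. The groups did not overlap, but the log2 change of 0.48 ± 0.075 (SE; limma adjusted p = 0.000616) stayed under the 2-fold minimum, so it was not called.

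The other 3 of the 5 most abundant members were higher in hair matrix cells. miR-2318 was at 4.48, 4.34 and 4.74 RPM in the dermal papilla libraries and at 54.5, 51.1 and 61.6 RPM in the hair matrix libraries. This was a 12.3-fold difference of the means, 4.52 ± 0.203 and 55.7 ± 5.40 RPM, with a log2 change of -3.36 ± 0.089 (SE; limma adjusted p = 2.58e-08). This was the largest change in size among the members in limma on log2(RPM + 1). In edgeR on whole reads its log2 change was -3.61. Larger in size were those of miR-2460 (-7.08), both arms of miR-2483 (6.05 and 5.10), miR-2366 (5.45) and miR-2422 (4.49), which limma did not test. miR-2318 kept its call under each of the alternatives in which it was tested, with log2 changes of -3.74 to -2.18.

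miR-2419-5p was at 16.0, 14.2 and 17.3 RPM in the dermal papilla libraries and at 56.1, 56.2 and 64.3 RPM in the hair matrix libraries. Its mean was the highest of all members in hair matrix cells, 3.72-fold above that in the other cell type (log2 change -1.83 ± 0.096 SE, limma adjusted p = 1.29e-06). miR-2336 was at 12.1, 12.4 and 11.3 RPM in the dermal papilla libraries and at 34.4, 37.5 and 39.6 RPM in the hair matrix libraries. It was 3.11-fold higher in hair matrix cells, with a log2 change of -1.56 ± 0.078 (SE; limma adjusted p = 9.90e-07). Both stayed called under each alternative in which they were tested. The order of the most abundant members therefore differed between the cell types, with miR-2387 and miR-2443 leading in dermal papilla cells and miR-2419-5p and miR-2318, whose libraries overlapped, leading in hair matrix cells.

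**Figure D2:**
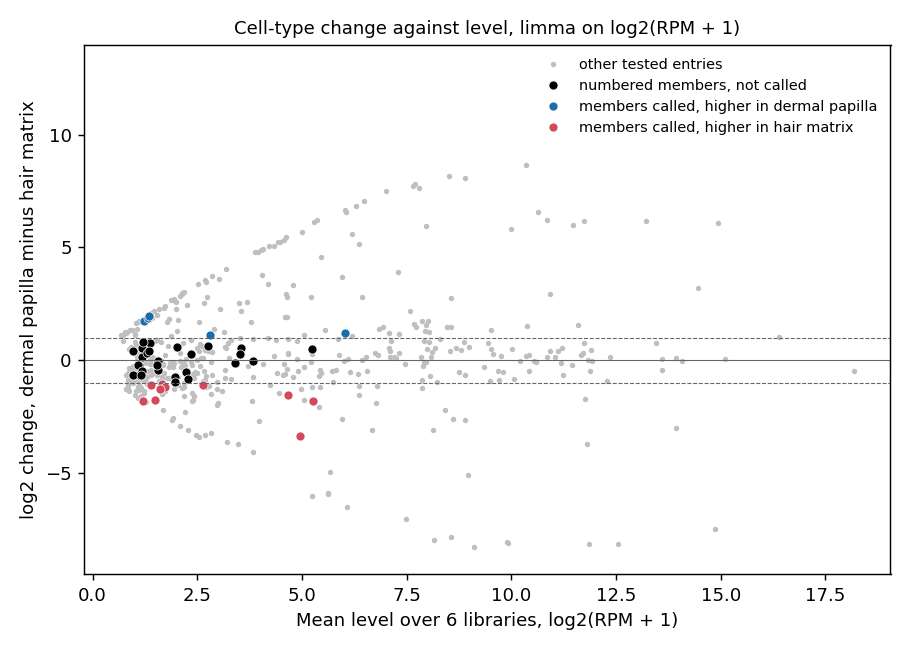
Log2 change, dermal papilla minus hair matrix, against the mean level over 6 libraries as log2(RPM + 1), for the 503 tested entries, with dashed lines at the 2-fold minimum. The 43 members, drawn in black or colour, lie at the low end of the level axis, and the 15 called ones lie beyond the dashed lines.

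Lower in abundance, 7 further members were called higher in hair matrix cells. miR-2314 was at 2.97, 3.05 and 2.89 RPM in the dermal papilla libraries and at 7.09, 7.72 and 7.58 RPM in the hair matrix libraries, with a log2 change of -1.09 ± 0.075 (SE; limma adjusted p = 6.17e-06). miR-2307 was at 0.251, 0.167 and 0.412 RPM in the dermal papilla libraries and at 3.08, 3.47 and 3.54 RPM in the hair matrix libraries. It rested on 6, 4 and 10 reads in the dermal papilla libraries, and the ratio of the pooled levels was 12.1, with an exact 95% counting interval of 7.68 to 20.2 (log2 change -1.78, limma adjusted p = 1.91e-06).

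miR-2459 was at 0.627, 1.04 and 0.660 RPM in the dermal papilla libraries and at 3.32, 3.35 and 3.37 RPM in the hair matrix libraries, a 4.31-fold difference (limma adjusted p = 1.65e-05). miR-2448-3p was at 0.878, 1.04 and 1.15 RPM in the dermal papilla libraries and at 3.64, 3.39 and 3.79 RPM in the hair matrix libraries, a 3.52-fold difference (limma adjusted p = 9.08e-06). In both, the lowest hair matrix library stood well above the highest dermal papilla library. miR-2397-3p was at 1.34, 0.919 and 0.907 RPM in the dermal papilla libraries and at 3.04, 3.55 and 3.21 RPM in the hair matrix libraries, a 3.10-fold difference (limma adjusted p = 6.19e-05). The groups of this miRNA did not overlap either.

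miR-2460 was all but limited to hair matrix cells, with 56, 64 and 70 reads in the hair matrix libraries and 0, 1 and 0 reads in the dermal papilla libraries. Its level in hair matrix cells was 2.60 ± 0.324 RPM (SD, n = 3). The ratio of the pooled levels was 187, with an exact 95% counting interval of 33.2 to 7431 (log2 change -1.82, limma adjusted p = 8.97e-07). miR-2307, miR-2460 and miR-2419-3p are the called members that reached 1 RPM in hair matrix libraries only.

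The 4 other members called higher in dermal papilla cells, beside miR-2387, were miR-2299-3p, both arms of miR-2483, and miR-2366. miR-2299-3p was at 7.82, 8.81 and 9.28 RPM in the dermal papilla libraries and at 3.28, 3.31 and 3.67 RPM in the hair matrix libraries. The groups were apart, with a 2.53-fold difference and a log2 change of 1.12 ± 0.090 (SE; limma adjusted p = 1.48e-05), which was 0.85 and not called after median centring and 0.47 with a pseudocount of 10.

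Both arms of miR-2483 were almost limited to dermal papilla cells. The 5p arm had 69, 68 and 82 reads in the dermal papilla libraries, at 2.89, 2.84 and 3.38 RPM, and 2, 0 and 1 reads in the hair matrix libraries. The ratio of its pooled levels was 74.1, with an exact 95% counting interval of 25.03 to 362 (log2 change 1.95, limma adjusted p = 4.48e-07). The 3p arm had 70, 86 and 57 reads in the dermal papilla libraries, at 2.93, 3.59 and 2.35 RPM, and 2 reads in each hair matrix library. Its ratio was 36.04, with an interval of 16.3 to 99.3 (log2 change 1.86, limma adjusted p = 4.69e-06). The arms of this hairpin were at like levels in dermal papilla cells, 3.04 ± 0.300 and 2.96 ± 0.622 RPM (SD, n = 3).

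miR-2366 followed the same pattern. It had 49, 61 and 77 reads in the dermal papilla libraries, at 2.05, 2.55 and 3.18 RPM, and 0, 2 and 2 reads in the hair matrix libraries. The ratio of its pooled levels was 47.5, with an exact 95% counting interval of 18.2 to 176 (log2 change 1.76, limma adjusted p = 7.45e-06). This miRNA and both arms of miR-2483 reached 1 RPM in dermal papilla libraries only, and when any 1 dermal papilla library was left out they no longer passed the filter, which left 2 members called higher in dermal papilla cells. With the tested entries held as they were, 5 were called in each of these runs.

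The remaining 28 tested members were not called. Among all 43 tested members 20 had a limma adjusted p under 0.05 at less than 2-fold, where 37.6% of all 503 tested entries did. Of these 20 members 11 were positive and 9 negative. On the positive side, miR-2320-5p was at 12.4, 13.2 and 12.8 RPM in the dermal papilla libraries and at 8.10, 10.09 and 7.83 RPM in the hair matrix libraries. Its log2 change was 0.52 ± 0.104 (SE), and the groups did not overlap. miR-2447 was at 7.23 ± 0.875 and 4.28 ± 0.227 RPM (SD, n = 3), a log2 change of 0.64. miR-2475 was at 11.5 ± 0.426 and 9.39 ± 0.575 RPM, a log2 change of 0.26 that was -0.01 after median centring, so that its direction rests on the scaling.

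On the negative side, miR-2416 was at 2.47, 2.38 and 2.56 RPM in the dermal papilla libraries and at 5.51, 4.66 and 5.71 RPM in the hair matrix libraries. Its means differed 2.14-fold, but on the log2(RPM + 1) scale the change of -0.86 ± 0.092 (SE) was under the minimum. Such a gap between the scales was found in 8 uncalled members, whose mean RPM differed at least 2-fold. miR-2397-5p was another: it was at 1.42, 1.09 and 2.56 RPM in the dermal papilla libraries and at 4.17 RPM in each hair matrix library. The third dermal papilla library stood above the others, and without it the log2 change went from -0.98 to -1.20 and the miRNA was called.

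For 8 members the adjusted p was 0.05 or more, and among these 2 were of some abundance. miR-2399-5p was at 12.4, 12.7 and 13.9 RPM in the dermal papilla libraries and at 13.0, 13.2 and 14.1 RPM in the hair matrix libraries, with a log2 change of -0.04 ± 0.077 (SE; limma adjusted p = 0.631). miR-2355-3p, whose number is also in use for a human miRNA, was at 9.16, 9.86 and 8.54 RPM in the dermal papilla libraries and at 10.97, 9.31 and 9.66 RPM in the hair matrix libraries. Its log2 change was -0.11 ± 0.092 (SE; limma adjusted p = 0.313). In both, the libraries of the cell types overlapped. The other 6 were miR-2484, miR-2381, miR-2404, miR-2308, miR-2346 and miR-2383, with log2 changes from -0.22 to 0.27.

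Whole reads could be recovered from the deposited values, and edgeR's quasi-likelihood test on these was tried beside limma. It shrinks low miRNAs toward no change less than the pseudocount of the limma scale does. It kept 644 entries and 50 members. Of the members 10 were called higher in dermal papilla cells, where 27.6% of the entries it kept were called, and 19 were called higher in hair matrix cells, where 29.7% were. In either direction edgeR called 29 of the 50 members and 369 of the 644 entries, which are like shares. All 15 members called by limma were called by edgeR in the same direction, and by DESeq2 too. The further calls of edgeR were 9 tested members, among them miR-2416 and miR-2397-5p, and 5 that limma had not tested. These 5, named after their values were seen, were miR-2316 and miR-2422, higher in dermal papilla cells, and miR-2448-5p, miR-2446 and miR-2435, higher in hair matrix cells. miR-2316 had 20, 31 and 18 reads in the dermal papilla libraries and 1, 3 and 4 reads in the hair matrix libraries (edgeR adjusted p = 0.000405). miR-2422 had 19, 10 and 23 reads against 0, 0 and 2 reads (edgeR adjusted p = 0.000891). Both passed edgeR's own filter through dermal papilla libraries only, so their direction follows from that filter. The same holds for miR-2446 and miR-2435 with hair matrix libraries. DESeq2 did not call miR-2448-5p, miR-2446 and miR-2435.

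Several of the members higher in hair matrix cells share letters that the choice of members did not use. C/D box small nucleolar RNAs guide the methylation of ribosomal RNA and are defined by a box C near the 5′ end, with the core letters TGATGA, and a box D, with the letters CTGA. Fragments of such RNAs can be picked up in small RNA libraries. The letters were searched after the sequences had been looked at, on the listed strand, with CTGA counted only downstream of TGATGA and without overlap. The members with TGATGA are shown with both boxes in capitals, in order of mean level.
miR-2318: gtgtaTGATGAattatCTGAcc
miR-2314: tgcccaTGATGActgCTGAcc
miR-2484: gagctaTGATGActttgattgcat
miR-2335: agataaTGATGActaaCTGAat
miR-2307: agTGATGAtgaaccctCTGAgc
miR-2440: tgcagTGATGAgaccctgga
miR-2383: ctgagTGATGActgCTGAcc
miR-2356: tcttgTGATGAgggagtCTGAgg
miR-2372: gaaTGATGAaaggattgggtca

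TGATGA was found in 9 of the 137 members (6.57%), and in 6 of them (4.38%) CTGA followed. The share of all listed entries with TGATGA was 1.19%, that of cattle-named entries outside the numbered groups compared here was 1.40%, and that of predicted entries was 0.859%. TGATGA followed by CTGA was found in 0.701% of all listed entries. The reverse complement, TCATCA, was found in 0 members and in 0.175% of all listed entries. In the members TGATGA began at base 3 to 7. A match describes the letters only, and whether these reads come from nucleolar RNAs was not tested.

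Of the 9 members with TGATGA 7 were tested, 3 of them (miR-2318, miR-2314 and miR-2307) were called higher in hair matrix cells and 0 higher in dermal papilla cells, with a median log2 change of -0.76. Over all tested members the shares called were 23.3% and 11.6%, and over all tested entries 19.9% and 25.2%, so 7 tested members give a count of low precision. Of these 7, miR-2307, miR-2440 and miR-2383 reached 1 RPM in hair matrix libraries only, so their direction follows from the filter. The summed level of the 9 was 15.4, 16.1 and 16.3 RPM in the dermal papilla libraries and 74.8, 73.4 and 83.4 RPM in the hair matrix libraries. The hair matrix sum was 4.84 times the dermal papilla sum, and in hair matrix cells most of it was miR-2318. Among the uncalled ones, miR-2335 was at 1.84, 2.05 and 1.86 RPM in the dermal papilla libraries and at 3.81, 3.80 and 4.21 RPM in the hair matrix libraries, without overlap (log2 change -0.76, limma adjusted p = 6.98e-05). miR-2484 went the other way in its means, 4.55 ± 0.360 and 3.62 ± 0.666 RPM (SD, n = 3), with overlapping libraries and a log2 change of 0.27 that was close to 0 after median centring. Outside the number range, 4 tested entries held TGATGA and 3 of these were called higher in dermal papilla cells, miR-136, miR-485 and a predicted entry. Their means were 10.9, 5.64 and 3.20 RPM in dermal papilla cells and 0.0821, 0 and 0.137 RPM in hair matrix cells. These 3 passed the filter through dermal papilla libraries only, so their direction follows from it too and is not read further.

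**Figure D3:**
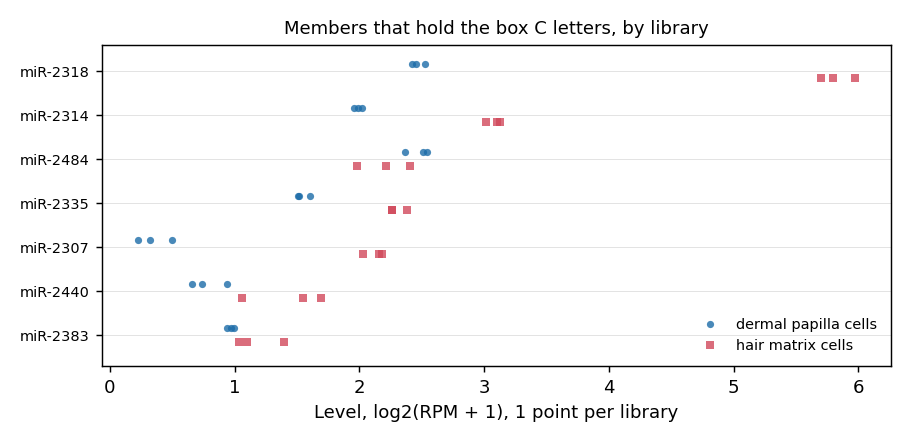
Levels of the 7 tested members that hold TGATGA, as log2(RPM + 1), with 1 point per library, circles for dermal papilla and squares for hair matrix cells. The hair matrix points of 6 members lie above all their dermal papilla points, by the widest gap for miR-2318, the points of miR-2484 overlap, and miR-2307, miR-2440 and miR-2383 passed the filter through hair matrix libraries only.

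Both arms were listed for 20 hairpins of the number range, and both were tested for 7. In 5 of these the arms' log2 changes had the same sign and both were over 0.4 in size. The arms of miR-2419 were both called higher in hair matrix cells: the 3p arm was at 0.586, 0.752 and 0.701 RPM in the dermal papilla libraries and at 2.79, 2.74 and 2.29 RPM in the hair matrix libraries (log2 change -1.10, limma adjusted p = 1.72e-05). The share of the 5p arm in both arms of miR-2419 was 95.8% ± 0.791 in dermal papilla cells against 95.7% ± 0.727 in hair matrix cells (SD, n = 3). miR-2299 was cut the other way, with a 5p share of 20.8% ± 2.46 and 21.4% ± 1.90. In miR-2320 the 5p share was 77.2% ± 1.81 and 79.2% ± 4.43, and in miR-2397 it was 59.8% ± 12.2 and 56.1% ± 1.98. In these 4 hairpins the arm shares of the cell types overlapped, and both arms had a limma adjusted p under 0.05 with changes of the same sign. However, miR-2299-5p, miR-2419-3p and both arms of miR-2483 reached 1 RPM in libraries of 1 cell type only. The signs of these arms follow from the filter, so a shared sign in their hairpins is partly set by it.

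miR-2411 differed from them, as its arms had changes of opposite sign. The 5p arm was at 2.51, 3.09 and 2.93 RPM in the dermal papilla libraries and at 4.62, 4.82 and 4.29 RPM in the hair matrix libraries (log2 change -0.54, limma adjusted p = 0.00103). The 3p arm was at 1.55, 1.88 and 1.69 RPM in the dermal papilla libraries and at 1.42, 0.858 and 1.33 RPM in the hair matrix libraries (log2 change 0.30, limma adjusted p = 0.0487). Neither arm was called. The 5p share was 61.9%, 62.2% and 63.4% in the dermal papilla libraries and 76.5%, 84.9% and 76.3% in the hair matrix libraries, without overlap.

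The shares of miR-2399 did not overlap either, at 89.4% ± 2.21 in dermal papilla cells against 84.9% ± 2.26 in hair matrix cells (SD, n = 3). For miR-2411 and miR-2399 the two-sided exact permutation p was 0.1, the smallest that 3 against 3 libraries allow, and the value adjusted over the 7 hairpins compared was 0.35. The arm shares of miR-2483 in hair matrix cells rest on 9 reads of both arms and are not read further.

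**Figure D4:**
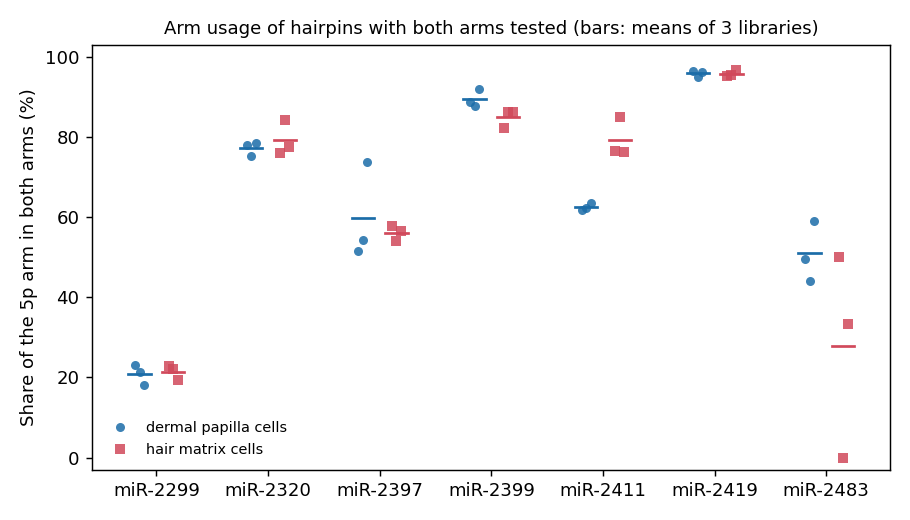
Share of the 5p arm in the reads of both arms, in percent, for the 7 hairpins with both arms tested, with 1 point per library and a bar at the mean of 3 libraries. The points of the 2 cell types are apart for miR-2411 and miR-2399, and the hair matrix points of miR-2483 scatter widely.

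Few members resembled other entries in sequence. Near-identical entries were defined by 18 or more aligned bases with no more than 1 mismatch over the whole ungapped overlap of the sequences. A good match within a longer overlap was not counted. Such entries existed for 7 members (5.11%), against 13.8% of all listed entries, and none of the 43 tested members was among them. Reads of such entries could have been divided by the authors' counting, so by this definition the doubt falls on low members only. One of the 7 was miR-2481, with 1 read in all, which matches the abundant miR-221 in 19 aligned bases with 1 mismatch. Another was miR-2312, which matches miR-2285e in 19 aligned bases with 1 mismatch and is near-identical to predicted entries as well. miR-2285e had a mean of 6.15 RPM over all libraries and was called higher in hair matrix cells (log2 change -1.50). Apart from these, miR-2312 shares its seed with 10 listed miR-2285 entries, members of a large ruminant family, and with 1 predicted entry. It is shown beside the most abundant of these seed partners, miR-2285f, with the seed in capitals. Over the first 19 bases these sequences differ by 1 mismatch. A further mismatch at the last base of the overlap leaves miR-2285f outside the definition of near-identical used here. Whether reads were divided between them was not tested.
miR-2312: aAAACCTGaacgaacttttc
miR-2285f: aAAACCTGaatgaactttttgg

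miR-2312 had 3, 3 and 4 reads in the dermal papilla libraries and 3, 6 and 9 reads in the hair matrix libraries. miR-2285f was far more abundant, at 17.5 ± 0.488 RPM in the dermal papilla libraries and 43.7 ± 4.12 RPM in the hair matrix libraries (SD, n = 3), and was called higher in hair matrix cells. The other members that share a seed with that family, miR-2303 and miR-2435, were low too, at mean levels of 0.328 and 0.451 RPM over all libraries.

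The members are set beside other groups of cattle names as shares and medians, and the differences were not tested. The median level over listed entries was 0.172 RPM in the members, below the miR-2284 and miR-2285 family (0.576 RPM) and the other cattle-named entries (6.35 RPM) and above the late numbers (0.0549 RPM). Of the members 31.4% were tested, against 42.1% of 133 entries of the miR-2284 and miR-2285 family, 21.1% of 57 late-numbered entries, miR-11970 to miR-12070, and 70.2% of the 430 other cattle-named entries. The most abundant member, at 64.2 RPM, compares with 753 RPM in the family and 179.5 RPM in the late numbers. Among tested entries 11.6% of the members were called higher in dermal papilla cells, against 12.5% of the family, 0 of the 12 late-numbered entries and 35.4% of the other cattle-named entries. The shares called higher in hair matrix cells were 23.3%, 35.7%, 33.3% and 14.6%. The median GC content was 54.5% in the members, 36.4% in the family, 56.5% in the late numbers and 47.6% in the other cattle-named entries.

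The replicate spread was near counting error in most of the low members but not in all, and it was above counting error in the most abundant ones. The variance of whole reads within a cell type, divided by that expected from counting alone, had a median of 1.12 over the tested members, against 4.53 over the other tested cattle-named entries, which were far more abundant (median 48.3 against 1.97 RPM). It was over 2 in 12 of the 43 tested members, and was 14.2 for miR-2387, 6.52 for miR-2419-5p, 3.23 for miR-2443, 6.45 for miR-2318 and 2.53 for miR-2336. Low members over 2 were miR-2397-5p (4.23), miR-2381 (3.79), miR-2346 (3.56), miR-2404 (3.38), miR-2308 (3.25) and miR-2440 (2.95). For the other low members the number of reads set most of the precision, and differences under the counting intervals were not detectable at this depth.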

How the data were processed

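Small RNA libraries were made with a TruSeq small RNA kit, per the labels' protocols. Per the submitters' processing notes, DESeq 1.20.0, HISAT2 2.2.1.0 and Trimmomatic were used, with no roles stated. How reads that match several entries were counted, which miRNA reference served and which genome build applies is not given in the sources. The deposited values, called TPM by the authors, are RPM: in each library 100% of them are whole multiples of 1 step within 0.001 read, so whole reads were recovered. Listed entries hold 71.7% to 73.5% of the reads, and every listed entry had a read.

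Entries reaching 1 RPM in 3 or more libraries were tested with limma 3.58.1 (R 4.3.3) across all miRNAs, on log2(RPM + 1), with cell type as the only term, a mean-variance trend and Benjamini-Hochberg adjustment. edgeR 4.0.16 (filterByExpr, TMM) and DESeq2 1.42.0 were run on whole reads. The limma step was checked on simulated data. It called 93% of entries given a log2 change of 2 in size, 20% of those given 1 and 0% of those given 0. A log2 change of 1 equals the call minimum and the pseudocount lowers its estimate, so a low share there was set in advance. The fold minimum likewise holds down calls of entries given 0. The same spread was assumed for all simulated entries, so these shares do not describe the low members by themselves. Replicate pairs differed by more than counting noise (chi-square per degree of freedom 26.6 to 76.8). The members and lists were chosen with earlier results of these data known. The marker lists hold epithelial, mesenchymal, blood, endothelial, muscle, neural and melanocyte miRNAs.

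Named members are the 30 most abundant tested ones, the most abundant untested one, their other arms and their sequence relatives, and others are said to be named after their values were seen, as are the called members miR-2366 and miR-2460, the uncalled miR-2308 and miR-2346 and the lower members that hold TGATGA. Of the 30 most abundant tested ones, miR-2320-3p, miR-2399-3p and miR-2468 were not called and are not described singly above. Their log2 changes were 0.57, -0.42 and 0.39. Genome positions were not used here.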

Additional observations from a re-analysis of the deposited data

How the results depend on the processing

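Calls of members were 5 higher in dermal papilla and 10 higher in hair matrix cells. They were 1 and 3 with a pseudocount of 10 and also with a filter of 10 RPM, 3 and 13 after median centring, 8 and 20 with RPM rescaled after removing the 5 most abundant entries, 16 and 19 without the fold minimum, 10 and 19 with edgeR and 10 and 16 with DESeq2. Over all entries the 227 calls became 117 with the pseudocount of 10, 127 with the filter of 10 RPM and 246 after median centring. They became 382 with the top 5 left out, 416 without the fold minimum, 369 with edgeR and 426 with DESeq2. Leaving out each library gave 2 to 5 members higher in dermal papilla cells and 7 to 11 higher in hair matrix cells, and the lower counts came from the filter. With the replicate number as a block (replicate block) the counts were 5 and 10 again. Same-numbered libraries did not deviate together (correlations 0.141, 0.0798 and -0.275), so the numbers are not taken as pairs. The ratio of summed levels, 1.21, was 1.39 without the 5 most abundant entries and 1.57 without miR-2387. Log2 changes that turned sign were all of uncalled members: miR-2399-5p, miR-2355-3p and miR-2381 with DESeq2 (0.14, 0.066 and 0.11), miR-2475, miR-2484 and miR-2308 after median centring (-0.0093, -0.0026 and -0.11), and miR-2381 when single libraries were left out (-0.20 to 0.099). Of the called members, 11 lost their call with a pseudocount of 10, all but miR-2387, miR-2318, miR-2336 and miR-2419-5p. The cause of these shifts was not tested beyond the settings named. Holding the tested entries fixed was chosen after seeing the data.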

Other observations

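Of the 137 members, 15 (10.9%) had reads in dermal papilla cells only and 19 (13.9%) in hair matrix cells only, against 16.3% and 18.2% of all listed entries. Of these 34 members 27 had 3 reads or fewer in all, and a miRNA with 1 read must fall in 1 cell type, so low counts fix much of this number. The members named here were chosen after their values were seen. miR-2377 had 18, 9 and 13 reads in the hair matrix libraries and 0 in each dermal papilla library, and the exact 95% counting interval of the ratio of pooled levels began at 10.2. miR-2473 had 4, 5 and 3 reads in the hair matrix libraries and 0 in the others, and its interval began at 2.74. miR-2339 had 6, 11 and 3 reads in the hair matrix libraries and 0, 1 and 0 in the dermal papilla libraries, a ratio of 19.7 with an exact 95% counting interval of 3.15 to 817.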
